A study of Homo sapiens with 18 samples.

Results

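The promoters described here are those of protein-coding genes whose start lies in DNA dense in CpG dinucleotides. A promoter was called CpG-rich when the 500 bp on either side of the transcription start site (TSS) contained CpG at 0.75 or more of the number expected from their C and G content (the CpG ratio) and had a GC content of at least 55%. The rule used the reference sequence only and no measured value. Of 20048 distinct protein-coding gene starts on chromosomes 1 to 22 and X, 7161 met it. The remaining 12887 promoters were kept for comparison and split into 6607 with a CpG ratio under 0.48 and 6280 intermediate ones. The CpG-rich promoters had a median CpG ratio of 0.849, a median GC content of 66.4% and a median of 93 CpG dinucleotides, against 0.234, 48.6% and 13 for those with a ratio under 0.48.

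Most CpG dinucleotides in the human genome are methylated and have been lost by mutation over evolution, and CpG islands are the stretches that escaped this. Island promoters drive most housekeeping genes and many developmental regulators, and they usually hold unmethylated, accessible chromatin with few or displaced nucleosomes. Linker histone H1 binds the nucleosome at the entry and exit of its DNA and favours compaction, and H1.2 and H1.5 are isotypes found in most somatic cells.

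All samples came from undifferentiated, untreated HL-60/S4 cells, a human myeloid leukemia line, fixed with formaldehyde and permeabilized. For xChIP-seq, sonication came first and rabbit polyclonal anti-H1.2 or anti-H1.5 was added to the fragments, whereas for xxChIP-seq the antibody was applied to permeabilized cells, which were fixed again and only then sonicated. The 4 combinations were each made in 3 replicates, deposited as 1 merged peak list of positions without read numbers, so depth is unknown and no spread between replicates can be given. The 95% Wilson intervals below therefore cover the counting of promoters only, neighbouring promoters are not independent, 1 cell line was studied, and a missing peak cannot tell absent histone from an epitope that the antibody did not reach.

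The following 8 promoters show how different the lists can be on sequence of this kind. The 200 bp upstream of the annotated start are printed 5′ to 3′ along the gene's strand, from the GRCh37 assembly (hg19), with every CpG in capitals; none of them overlapped an annotated exon. EZH2, the H3K27 methyltransferase of Polycomb repressive complex PRC2 (chr7:148581414-148581613, minus strand), and SRSF6, a splicing factor (chr20:42086333-42086532, plus strand), were overlapped by both xChIP lists and by neither xxChIP list.
EZH2: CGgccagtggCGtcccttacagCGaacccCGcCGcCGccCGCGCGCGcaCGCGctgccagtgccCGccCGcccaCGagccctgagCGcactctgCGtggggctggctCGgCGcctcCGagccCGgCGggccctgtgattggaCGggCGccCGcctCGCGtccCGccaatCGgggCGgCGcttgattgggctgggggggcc
SRSF6: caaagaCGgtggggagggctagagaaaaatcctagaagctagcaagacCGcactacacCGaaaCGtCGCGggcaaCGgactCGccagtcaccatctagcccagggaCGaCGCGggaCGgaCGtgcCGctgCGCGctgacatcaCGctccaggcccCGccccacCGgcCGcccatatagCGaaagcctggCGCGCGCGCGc
ZNF677, a zinc finger gene of chromosome 19 (chr19:53758152-53758351, minus strand), and TJP1, the tight junction protein ZO-1 (chr15:30261119-30261318, minus strand), showed the opposite arrangement, with both xxChIP lists and neither xChIP list.
ZNF677: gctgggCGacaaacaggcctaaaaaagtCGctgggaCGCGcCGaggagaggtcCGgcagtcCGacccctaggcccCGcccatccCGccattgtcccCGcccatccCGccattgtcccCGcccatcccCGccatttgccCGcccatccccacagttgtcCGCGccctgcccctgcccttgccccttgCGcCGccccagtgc
TJP1: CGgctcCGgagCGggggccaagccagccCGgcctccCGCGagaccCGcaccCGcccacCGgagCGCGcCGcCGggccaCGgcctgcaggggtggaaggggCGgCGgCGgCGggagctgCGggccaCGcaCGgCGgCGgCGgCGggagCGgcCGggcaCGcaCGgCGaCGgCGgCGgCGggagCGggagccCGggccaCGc
H2BC26, a histone H2B gene (chr1:228645604-228645803, plus strand), and DACT2, a modulator of WNT and TGF-beta signalling (chr6:168720458-168720657, minus strand), were overlapped by all 4 lists.
H2BC26: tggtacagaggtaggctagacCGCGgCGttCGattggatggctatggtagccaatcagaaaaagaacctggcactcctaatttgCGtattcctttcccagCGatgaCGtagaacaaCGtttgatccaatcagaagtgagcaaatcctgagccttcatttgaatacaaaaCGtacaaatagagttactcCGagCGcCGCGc
DACT2: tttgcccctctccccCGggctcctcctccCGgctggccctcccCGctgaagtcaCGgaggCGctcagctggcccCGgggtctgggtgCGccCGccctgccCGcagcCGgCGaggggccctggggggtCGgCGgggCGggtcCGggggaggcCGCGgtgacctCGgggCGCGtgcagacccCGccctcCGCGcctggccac
CEBPA, a transcription factor of the granulocyte lineage (chr19:33793441-33793640, minus strand), and BLOC1S4, a subunit of the BLOC-1 complex of lysosome-related organelles (chr4:6717701-6717900, plus strand), were overlapped by no list.
CEBPA: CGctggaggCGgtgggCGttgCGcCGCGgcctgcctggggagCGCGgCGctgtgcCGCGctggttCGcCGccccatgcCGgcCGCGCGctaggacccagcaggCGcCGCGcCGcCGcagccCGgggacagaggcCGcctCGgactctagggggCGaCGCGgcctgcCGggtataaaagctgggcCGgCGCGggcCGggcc
BLOC1S4: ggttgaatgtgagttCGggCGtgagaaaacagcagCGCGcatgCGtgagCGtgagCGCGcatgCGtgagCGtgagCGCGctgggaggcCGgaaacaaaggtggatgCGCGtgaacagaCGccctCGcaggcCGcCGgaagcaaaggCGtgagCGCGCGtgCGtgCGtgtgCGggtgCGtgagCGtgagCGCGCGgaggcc
The number of CpG dinucleotides in these stretches ran from 13 at H2BC26 to 37 at TJP1. EZH2, TJP1 and CEBPA, with 3 different arrangements, held 31, 37 and 33 CpG. TJP1 was picked for its high CpG ratio, so these single promoters cannot show how CpG number relates to arrangement. Over the whole class, the median CpG number of TSS ± 500 bp was 93 with xChIP only, 84 with xxChIP only and 95 with no list. At EZH2 an xChIP H1.2 peak of 24325 bp covered the whole promoter and an xChIP H1.5 peak of 1216 bp covered 14.0% of it. At ZNF677 an xxChIP H1.5 peak of 15533 bp covered the whole promoter, while the xxChIP H1.2 peak reached 4.30% of it. At H2BC26 the xxChIP lists touched only the edge of the window, with 0.250% and 0.600% covered, whereas at DACT2 each list covered between 34.6% and 45.7%.

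The first comparison asked how often CpG-rich promoters carried peaks of each isotype under each protocol. A promoter was taken as TSS ± 1000 bp and counted from 1 shared bp. The xChIP H1.2 list overlapped 3670 of 7161 CpG-rich promoters, or 51.2% (50.1 to 52.4%), and 48.2% of all promoters. The xChIP H1.5 list overlapped 1488, or 20.8% (19.9 to 21.7%), against 21.6% of all promoters. The xxChIP H1.2 list overlapped 223, or 3.11% (2.74 to 3.54%), against 8.78% of all promoters. The xxChIP H1.5 list overlapped 141, or 1.97% (1.67 to 2.32%), against 7.91% of all promoters. CpG-rich promoters thus carried xxChIP peaks less often than promoters at large, and xChIP H1.2 peaks slightly more often.

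Within promoters the xxChIP shares followed the CpG class. Promoters with a ratio under 0.48 were overlapped in 16.6% of cases by the xxChIP H1.2 list and in 15.8% by that of H1.5, and all remaining promoters in 11.9% and 11.2%, with intervals far from those of the CpG-rich class. For xChIP the order was different. The xChIP H1.2 share was 43.3% in promoters with a ratio under 0.48 and 46.4% in all remaining ones, below the 51.2% of the CpG-rich class. The xChIP H1.5 shares of 21.2% in the low-ratio class and 20.8% in the CpG-rich class had overlapping intervals.

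Set against every window of the same width on the known sequence of these chromosomes, CpG-rich promoters were overlapped 1.43 times as often by xChIP H1.2 as windows at large, of which 35.9% touched a peak. The same ratio was 0.808 for xChIP H1.5, where 25.7% of windows touched a peak. Under xxChIP it was 0.104 for H1.2 and 0.0735 for H1.5, where 30.1% and 26.8% did. The xxChIP ratios depended on the width of the window: with TSS ± 500 bp they were 0.0444 and 0.0342, and with TSS ± 2500 bp 0.325 and 0.265. In all 3 widths both xxChIP ratios lay below those of either xChIP list.

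**Figure D1:**
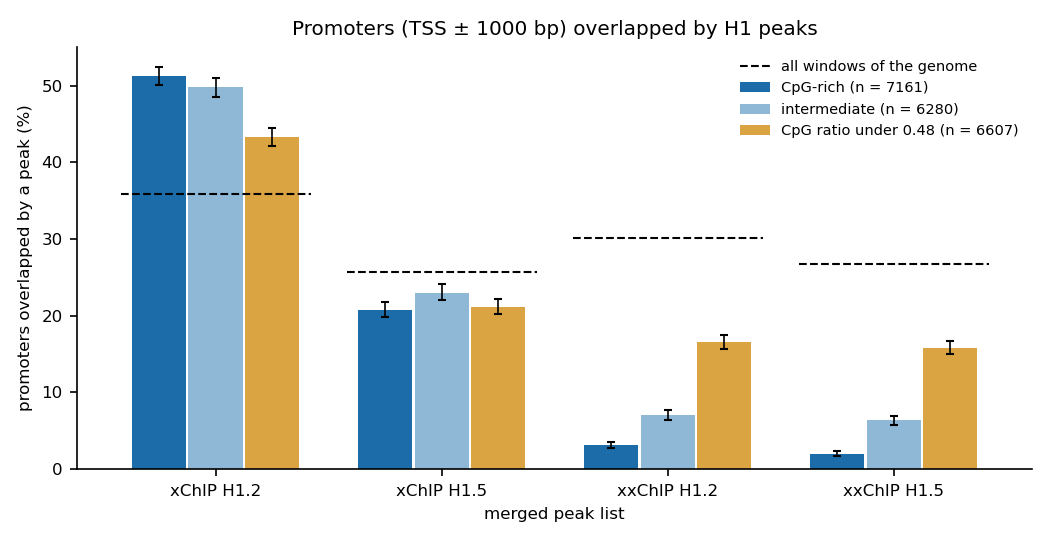
Share of promoters (TSS ± 1000 bp) overlapped by each merged peak list, for CpG-rich, intermediate and low-ratio promoters; bars are shares, error bars 95% Wilson intervals, and dashed lines the share of all genomic windows of that width. CpG-rich promoters have the highest bar for xChIP H1.2 (51.2%) and the lowest bars for xxChIP H1.2 (3.11%) and xxChIP H1.5 (1.97%).

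The start itself was more sharply divided than the window around it. The TSS base lay under an xChIP H1.2 peak in 2827 CpG-rich promoters, or 39.5%, against 36.6% of all promoters. It lay under an xChIP H1.5 peak in 574, or 8.02%, against 10.2% of all promoters. Under xxChIP H1.2 it was covered in 36, or 0.503%, against 3.66%, and under xxChIP H1.5 in 27, or 0.377%, against 3.63%. The median distance from a CpG-rich TSS to the nearest xChIP peak was 918 bp for H1.2 and 4551 bp for H1.5, and to the nearest xxChIP peak 8448 and 10791 bp. For all promoters these medians were 1143.5 and 4482 bp in xChIP, and 7248 and 8577 bp in xxChIP.

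Profiles out to 5 kb dipped around or just downstream of the TSS in each list, to very different depths. The lowest step of 100 bp began at the TSS for xChIP H1.5, 400 bp downstream for xChIP H1.2, and 500 and 300 bp downstream for H1.2 and H1.5 under xxChIP. Covered share within 100 bp of the TSS was divided by that at 4 to 5 kb on both sides. For xChIP H1.2 the share was 39.5% at the TSS and 46.0% in the flanks, a ratio of 0.858. For xChIP H1.5 it was 8.04% against 17.5%, a ratio of 0.460. Under xxChIP it was 0.496% against 9.36% for H1.2 and 0.382% against 6.71% for H1.5, ratios of 0.0530 and 0.0570. In promoters with a ratio under 0.48 the corresponding ratios were 0.844, 0.673, 0.539 and 0.619. The xChIP H1.2 profile therefore dipped about as little in both classes. The xChIP H1.5 dip and both xxChIP dips were deeper in the CpG-rich class.

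The dips differed in width as well as in depth. At the level midway between the minimum and the flank, the xChIP H1.5 dip of CpG-rich promoters reached from 700 bp upstream to 1300 bp downstream, a width of 2000 bp. The xxChIP H1.2 dip reached from 1500 bp upstream to 2800 bp downstream, a width of 4300 bp, and the xxChIP H1.5 dip from 1600 bp upstream to 3000 bp downstream, a width of 4600 bp. For xChIP H1.2 no such width could be read, because the downstream side did not climb back to that level within 5 kb.

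All 4 profiles were lopsided. Covered share 1 to 2 kb upstream of the TSS exceeded that 1 to 2 kb downstream, at 46.0% against 41.0% for H1.2 and 17.0% against 13.5% for H1.5 in xChIP. In xxChIP it was 4.63% against 1.80% for H1.2 and 3.31% against 1.39% for H1.5. The upstream share was also the higher one in each list for intermediate and low-ratio promoters, so this direction was not particular to the CpG-rich class. With a ratio under 0.48 the xChIP shares were 36.4% against 32.2% for H1.2 and 15.8% against 12.8% for H1.5. The xxChIP shares of that class were 14.1% against 9.78% for H1.2 and 12.96% against 9.27% for H1.5. In 932 CpG-rich promoters whose start faced that of another protein-coding gene on the opposite strand within 1000 bp, this lopsidedness was absent or turned round. There the xChIP H1.2 shares were 48.1% upstream and 47.6% downstream, and the xxChIP H1.2 shares 2.33% and 2.91%. Where both starts of a pair were CpG-rich, the pair entered the profile in both directions. That evens out the sides by construction, so no conclusion is drawn from the lost lopsidedness. Head-to-head promoters were overlapped by xxChIP H1.2 in 12 of 932 cases, or 1.29% (0.738 to 2.24%), against 211 of 6229, or 3.39%, of the others.

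**Figure D2:**
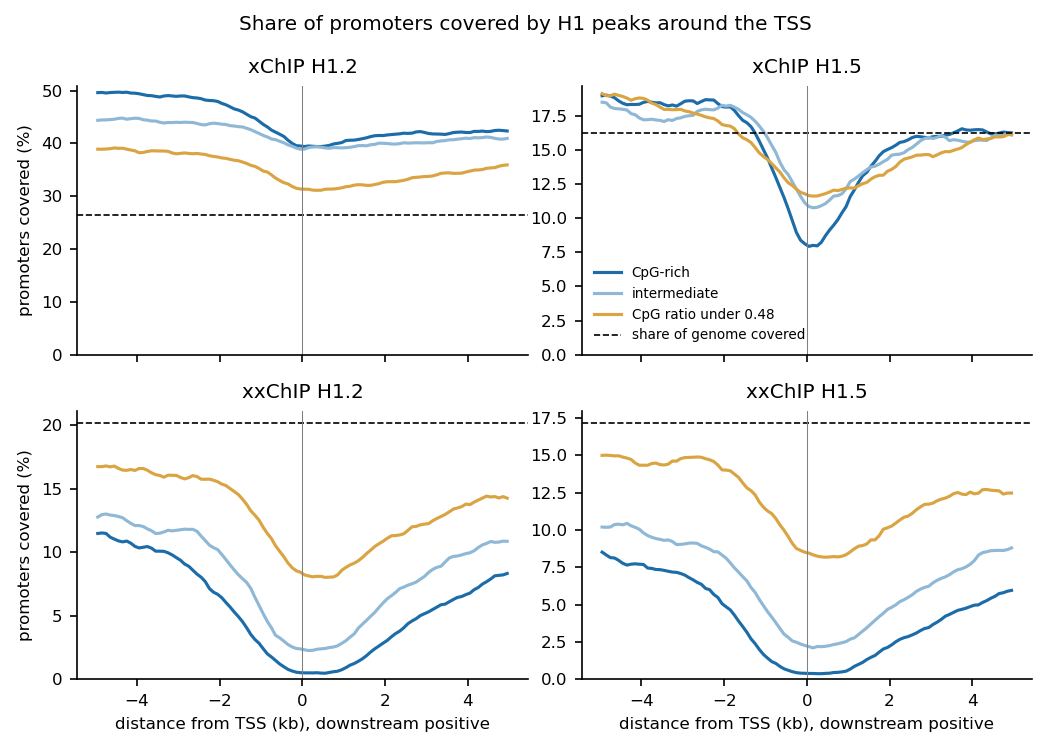
Share of promoters covered by peaks of each list in steps of 100 bp along the gene's strand, from 5 kb upstream to 5 kb downstream of the TSS, for the 3 promoter classes; the dashed line is the share of the known genome the list covers. At CpG-rich starts the xxChIP curves come down to 0.496% and 0.382%, and the xChIP H1.2 curve stays at 39.5%, above its genome share of 26.4%.

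Where a peak did touch a CpG-rich promoter, the protocols also differed in how it lay. Of the 3670 promoters with an xChIP H1.2 peak, 64.6% were covered whole, and in 52.2% the longest peak measured 20 kb or more, with a median of 22588 bp. The remaining promoters with an xChIP H1.2 peak were covered whole in 58.7% of cases, and in 44.8% the longest peak measured 20 kb or more, with a median of 14572 bp. Of the 1488 with an xChIP H1.5 peak, 24.7% were covered whole and 61.4% had an uncovered TSS. In the remaining promoters with an xChIP H1.5 peak these shares were 27.1% and 48.6%. In the xxChIP lists the peak lay upstream only in 69.5% of the 223 promoters for H1.2 and 64.5% of the 141 for H1.5, and the TSS was free in 83.9% and 80.9%. In all remaining promoters with an xxChIP peak, the upstream-only shares were 37.5% and 35.6% and the TSS was free in 54.6% and 51.5%. Most of the few xxChIP overlaps of CpG-rich promoters were thus upstream edges that stopped short of the start.

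The 4 lists were then read together at each promoter. An xChIP peak of either isotype without any xxChIP peak was found at 3917 CpG-rich promoters, or 54.7%, against 48.5% of all promoters. An xxChIP peak of either isotype without any xChIP peak was found at 137, or 1.91%, against 6.86% of all promoters. Both protocols met at 194, or 2.71%, against 6.75%, and no list touched 2913, or 40.7%, against 37.9%. The largest arrangement with any peak was xChIP H1.2 alone, at 2517 CpG-rich promoters or 35.1%, against 30% of all promoters. Both xChIP lists without an xxChIP list overlapped 990 (12.6% of all promoters had this arrangement), both xxChIP lists without an xChIP list overlapped 13 (1.59% of all), and all 4 lists overlapped 6 (0.459% of all).

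Shared promoters of the isotypes were more numerous under xChIP. Between promoters with and without the other isotype, shares differed by more percentage points under xChIP, in either direction. As a ratio they differed more under xxChIP, where all shares were low. Of those with an xChIP H1.5 peak, 1047 of 1488, or 70.4%, also had an xChIP H1.2 peak, whereas 46.2% of those without one did. The 1047 were 28.5% of the xChIP H1.2 promoters, whereas 12.6% of the promoters free of xChIP H1.2 had an xChIP H1.5 peak. Of the 223 with an xxChIP H1.2 peak, 33, or 14.8%, also had an xxChIP H1.5 peak, against 1.56% of those without one. These 33 were 23.4% of the 141 xxChIP H1.5 promoters, whereas 2.71% of the promoters free of xxChIP H1.5 had an xxChIP H1.2 peak. In all remaining promoters 583 of 1537, or 37.9%, of those with xxChIP H1.2 also had xxChIP H1.5. Across protocols, 3.24% of CpG-rich promoters with an xChIP H1.2 peak and 2.98% of those without one had an xxChIP H1.2 peak. For H1.5 the corresponding shares were 2.42% and 1.85%. These shares come from merged lists of unequal coverage.

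The arrangements differed little in the CpG ratio of the promoter and more in its surroundings. The median CpG ratio was 0.833 at promoters with xxChIP only and 0.851 with no list. The median GC content was 66.3% at promoters with xChIP only, 63.2% with xxChIP only and 67.0% with no list. The median GC content of the surrounding 100 kb was 46.2% with xChIP only, 40.9% with xxChIP only and 42.8% with no list, and the median number of protein-coding starts within 500 kb was 13, 6 and 8.

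Among the CpG-rich promoters themselves, xxChIP overlap was lower at higher GC content. For xxChIP H1.2 it was 4.75% at a GC content of 55 to 60%, 4.36% at 60 to 65%, 3.07% at 65 to 70% and 1.28% (0.896 to 1.84%) at 70% and above. For xxChIP H1.5 the shares were 3.25%, 2.37%, 2.01% and 0.930%. The xChIP H1.5 share went from 25.6% to 18.3% across the same bins, while the xChIP H1.2 share stayed between 50.0% and 52.1%. GC content can also influence library amplification and mapping, and its part in these differences was not tested. Just inside the CpG ratio of 0.75, between 0.75 and 0.80, the xChIP shares were 51.9% for H1.2 and 21.9% for H1.5, and the xxChIP shares 4.55% and 2.61%. Just outside, between 0.70 and 0.75 at the same limit on GC content, they were 51.0%, 24.6%, 4.74% and 4.06%. The 2 bins thus differed little for H1.2. The H1.5 shares were lower just inside the limit than just outside it, but with overlapping intervals under both protocols.

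**Figure D3:**
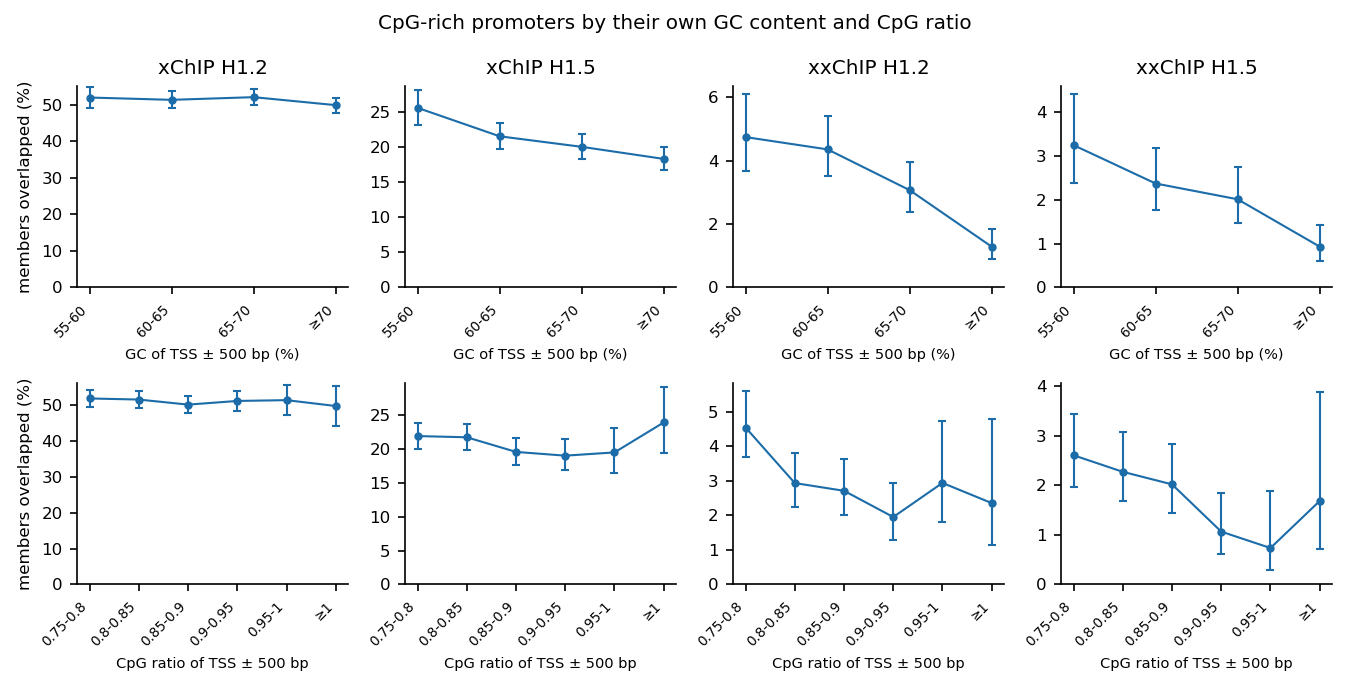
Share of CpG-rich promoters overlapped by each list, by the GC content (upper row) and CpG ratio (lower row) of TSS ± 500 bp; points are shares and bars 95% Wilson intervals, and each panel has its own scale from 0. The xxChIP H1.2 share goes from 4.75% to 1.28% over the GC bins, and the xChIP H1.2 share stays between 50.0% and 52.1%.

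The surroundings of a promoter moved with the xChIP H1.2 share more than its own sequence did. CpG-rich promoters were divided into 3 equal parts by the GC content of the 100 kb around them, at 42.1% and 47.8%. The xChIP H1.2 share was 32.3% in the GC-poor part, 54.3% in the middle and 67.1% in the GC-rich part, and 26.6%, 50.8% and 67.0% in the remaining promoters within the same limits. In GC-rich surroundings the xChIP H1.2 shares of CpG-rich and remaining promoters differed by less than their counting error. The xxChIP H1.2 share of CpG-rich promoters was 4.19%, 3.10% and 2.05% over the same parts, against 17.0%, 11.9% and 5.57% in the remaining promoters, and the xxChIP H1.5 share 2.85%, 1.76% and 1.30% against 14.7%, 11.8% and 6.29%. The xxChIP shares of the CpG-rich class lay below those of the remaining promoters in each part. The xChIP H1.5 share was 17.3%, 21.2% and 23.8%, against 19.1%, 23.8% and 24.2%.

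**Figure D4:**
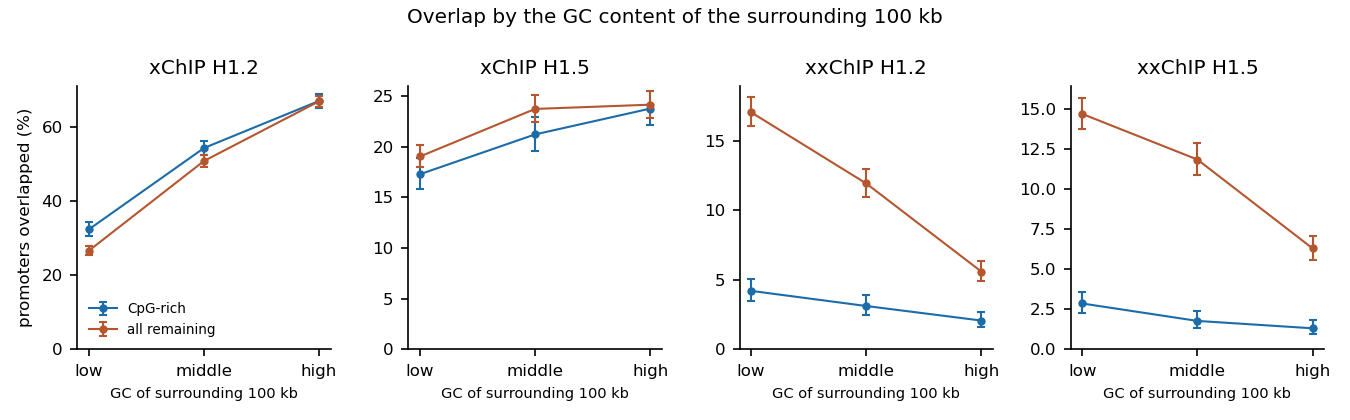
Share of CpG-rich and of all remaining promoters overlapped by each list, in 3 parts by the GC content of the surrounding 100 kb (limits at 42.1% and 47.8%); points are shares and bars 95% Wilson intervals. The xChIP H1.2 curves meet at 67.1% and 67.0% in GC-rich surroundings, and both xxChIP curves of the CpG-rich class lie below those of the remaining promoters throughout.

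By chromosome, both xxChIP shares were lower in CpG-rich than in remaining promoters on 23 of 23 chromosomes. The xChIP H1.2 share was higher in CpG-rich promoters on 18 and lower on 5, and the xChIP H1.5 share higher on 8 and lower on 15. For xChIP H1.2 the CpG-rich share ran from 23.3% on chromosome X to 61.0% on chromosome 19, with a median of 53.4%. For xxChIP H1.2 it ran from 0.475% on chromosome 17 to 6.27% on chromosome 19. For xxChIP H1.5 chromosome 18 had 0 of 145 CpG-rich promoters, which allows a share of up to 2.07%, and chromosome 21 had 0 of 83, which allows up to 3.61%. Chromosome 22 had the highest share, 4.15%.

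Gene groups among the CpG-rich promoters were compared with the share of the whole class. Ribosomal protein genes carried xChIP H1.2 peaks more often than the class, and the cytosolic ones xChIP H1.5 peaks as well. None carried an xxChIP peak, which at this group size cannot be told from the class shares of 3.11% and 1.97%. Of 86 cytosolic ribosomal protein genes 47 were CpG-rich, and 37 of these, or 78.7% (65.1 to 88.0%), had an xChIP H1.2 peak, 17, or 36.2%, an xChIP H1.5 peak, and 0 an xxChIP peak of either isotype, which allows a share of up to 6.38%. RPL10A, of the large subunit, lay wholly under an xChIP H1.2 peak of 127508 bp and FAU, which encodes the small-subunit protein eS30, under a peak of 36348 bp. RPL10, also of the large subunit, had an xChIP H1.2 peak of 1783 bp over 34.5% of the promoter and an xChIP H1.5 peak over 34.7%, whereas RPL26, RPL27A and RPL7 were in no list. Among 35 CpG-rich mitochondrial ribosomal protein genes 26, or 74.3% (57.9 to 85.8%), had an xChIP H1.2 peak and 0 an xxChIP peak, which allows up to 8.57%. For xChIP H1.5 there were 10, or 28.6% (16.3 to 45.1%), an interval that includes the class share of 20.8%. These genes sit in GC-rich surroundings: 25 of the 47 cytosolic ones lay in the GC-rich part, where 24 had an xChIP H1.2 peak. The part of regional GC content in the group shares was not tested.

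The basic transcription machinery also had an xChIP H1.2 interval above the class share of 51.2%, with a point value nearer to it than those of ribosomal protein genes. Of 43 CpG-rich genes for RNA polymerase subunits, Mediator and general transcription factors, 29, or 67.4% (52.5 to 79.5%), had an xChIP H1.2 peak, while the xxChIP lists touched 3 for H1.2 and 1 for H1.5. Those touched for H1.2 included MED9, a Mediator subunit, and POLR2D, a subunit of RNA polymerase II. Spliceosome proteins, respiratory chain and ATP synthase subunits, proteasome subunits and solute carriers had xChIP H1.2 shares of 62.2% (n = 37), 56.2% (n = 32), 50% (n = 16) and 52.4% (n = 126), with intervals that included the class share of 51.2%.

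Developmental genes lay at the other end. Of 39 HOX genes, which set position along the body axis, 15 were CpG-rich. Of these, 12, or 80%, were in no list, against 40.7% of the class. The 3 with a peak were HOXD3, HOXD8 and HOXD9, neighbours in 1 cluster, each under xChIP H1.2 only, with 65.0%, 100% and 40.0% of the promoter covered. No HOX promoter was overlapped by xChIP H1.5 or xxChIP, and 0 of 15 allows a share of up to 20%. Those free of peaks included HOXA13, HOXA4 and HOXA5 on chromosome 7, HOXB4, HOXB5, HOXB7 and HOXB9 on chromosome 17, and HOXC12, HOXD12 and HOXD13. Of the 15, 13 lay in GC-rich surroundings, where 67.1% of all CpG-rich promoters had an xChIP H1.2 peak against 3 of these 13. HOX genes share clusters, so the 15 are not independent.

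Other developmental transcription factors were similar. Of 88 CpG-rich ones 30, or 34.1% (25.0 to 44.5%), had an xChIP H1.2 peak, 11, or 12.5%, an xChIP H1.5 peak, and 52 no peak of any list, among them BARHL2, BARX1 and DLX2, homeobox genes of neural and craniofacial development. The xxChIP lists touched ISL1, a regulator of motor neurons and heart, with 65.9% of the promoter under an H1.2 peak, and TBX3, a T-box repressor, with 26.8% under an H1.5 peak. Of 15 WNT ligand and Frizzled receptor genes 6, or 40% (19.8 to 64.3%), had an xChIP H1.2 peak, an interval that includes the class share of 51.2%. They had 0 peaks of the other lists, which allows up to 20% for each, beside class shares of 20.8% for xChIP H1.5 and 3.11% and 1.97% under xxChIP. Potassium channel subunits (14 of 37) and cyclins and cyclin-dependent kinases (15 of 37) also had point values under the class share, at 37.8% and 40.5%, but their intervals included it. Of 13 replication-dependent histone genes 6 had an xChIP H1.2 peak, of 9 germline genes 3, and of 6 interferon-stimulated genes 2, too few to be told from the class share of 51.2%. The only CpG-rich clustered protocadherin, PCDHAC1, had an xxChIP H1.2 peak over 16.3% of its promoter.

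**Figure D5:**
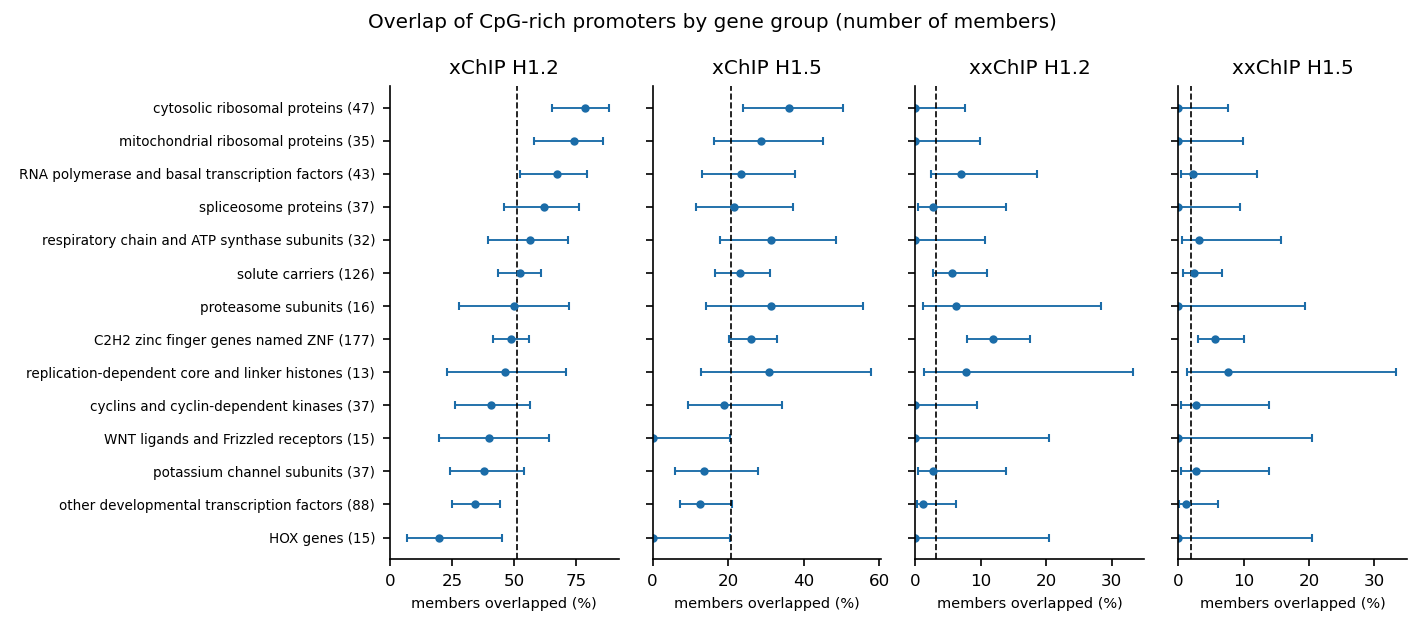
Share of CpG-rich promoters overlapped by each list in the gene groups with at least 13 members (number in brackets); points are shares, bars 95% Wilson intervals, and the dashed line the share over all 7161 CpG-rich promoters. Ribosomal protein genes stand highest and HOX genes lowest for xChIP H1.2, at 78.7% and 20%, and zinc finger genes have the highest xxChIP H1.2 share, 11.9%.

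Among the groups with at least 13 members, zinc finger genes had the highest xxChIP H1.2 share. C2H2 zinc finger genes, many of which encode KRAB repressors of transposable elements, form tandem clusters on chromosome 19 that are known for heterochromatin marks over the gene bodies. Of 506 genes named ZNF 177 were CpG-rich, and 21, or 11.9% (7.89 to 17.5%), had an xxChIP H1.2 peak, and for H1.5 there were 10, or 5.65% (3.10 to 10.1%). In CpG-rich promoters of all other genes these shares were 2.89% and 1.88%. The xChIP H1.2 share of CpG-rich ZNF promoters was 48.6%, within counting error of the 51.3% of the other genes. The 329 ZNF promoters outside the CpG-rich class had xxChIP shares of 19.1% (15.3 to 23.7%) for H1.2 and 17.0% (13.3 to 21.5%) for H1.5. All remaining promoters had 11.9% and 11.2%, so higher xxChIP shares at ZNF genes were not particular to the CpG-rich class.

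The xxChIP overlap of CpG-rich zinc finger promoters lay mostly on chromosome 19. Of 61 CpG-rich ZNF promoters there, 13, or 21.3% (12.9 to 33.1%), had an xxChIP H1.2 peak and for H1.5 there were 9, or 14.8% (7.96 to 25.7%), while 354 other CpG-rich promoters of the same chromosome had 3.67% and 0.847%. The xChIP H1.2 order was the reverse, with 16 of 61, or 26.2% (16.8 to 38.4%), against 66.9%. The 116 ZNF promoters on other chromosomes had 60.3% for xChIP H1.2 and, under xxChIP, 6.90% for H1.2 and 0.862% for H1.5. ZNF promoters of chromosome 19 had a median GC content of 61.1% against 67.0% for the other CpG-rich promoters there, and the part of this difference was not tested. The 13 and 9 promoters lay under 13 and 8 distinct peaks. ZNF470 lay wholly under an xxChIP H1.2 peak of 31934 bp and under 42.7% xxChIP H1.5, ZNF432 wholly under an xxChIP H1.2 peak of 29985 bp, and ZNF471 wholly under an xxChIP H1.5 peak of 4075 bp, all 3 without any xChIP peak. ZNF568 and ZNF829, whose starts face each other 25 bp apart, shared 1 xxChIP H1.5 peak of 8672 bp.

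A TSS under an xxChIP peak was rare enough that each case could be listed. There were 61 such CpG-rich promoters, or 0.852%, against 8.78% of the remaining promoters. Of these, 36 lay under xxChIP H1.2 and 27 under xxChIP H1.5, and 41 had no xChIP peak in the promoter. Over the class, promoters without an xChIP peak were the 40.7% in no list and the 1.91% with xxChIP only. Of the 61, 9 were ZNF genes, and ZNF genes made up 2.47% of the CpG-rich class. The genes named in this paragraph were chosen after their values were seen. Only LRP1B, a large lipoprotein receptor family member, and QRFPR, a neuropeptide receptor, had the TSS under both xxChIP lists. Their CpG ratios of 0.753 and 0.764 and GC contents of 55.5% were close to the limits of the rule.

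The 61 included genes of varied known function. NPY, neuropeptide Y, BMP3, a ligand of the TGF-beta family, and OSMR, the oncostatin M receptor, each had the TSS under a short xxChIP H1.5 peak, of 1159, 1253 and 1203 bp. TMEFF2, a transmembrane protein of brain and prostate, had an xxChIP H1.2 peak of 1946 bp over 85.6% of the promoter, and one of H1.5 over 32.6%. POU4F2, a transcription factor of retinal ganglion cells, ISL1 and GHSR, the ghrelin receptor, lay under xxChIP H1.2 peaks of 5610, 4200 and 3008 bp. None of these 7 promoters was touched by an xChIP peak. Broad xxChIP H1.2 peaks covered BMP2, a bone morphogenetic protein, over 33043 bp, UGT8, the enzyme of galactocerebroside synthesis, over 42359 bp, and SLC6A11, the GABA transporter GAT-3, over 59316 bp. Genes with general cell functions were among the 61 as well, such as MED9 and the respiratory complex I assembly factors NDUFAF4 and TIMMDC1. BMP2 was also among the most CpG-rich of the 61, with a CpG ratio of 1.05 and 130 CpG in the 500 bp on either side of its start. NBPF15 and NUDT4B belong to families of near-identical copies, where unique mapping makes a peak uncertain, and 6 of the 61 shared a peak with a neighbouring start within 1000 bp. DNA methylation and gene expression were not analysed here.

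Individual genes of known function spanned these arrangements. Of 40 genes listed by name 19 were CpG-rich, and 12 of these had an xChIP H1.2 peak, 2 an xChIP H1.5 peak and 0 an xxChIP H1.2 peak, which allows a share of up to 15.8%. The xxChIP H1.5 list touched 1. The class shares were 51.2% and 20.8% for H1.2 and H1.5 under xChIP, and 3.11% and 1.97% under xxChIP. With 19 genes these counts cannot be told from the class shares. The housekeeping and proliferation genes varied. TUBA1B, an alpha-tubulin, lay wholly under a peak of 281024 bp, PCNA, the sliding clamp of replication, under 180154 bp, and GAPDH, of glycolysis, under 92608 bp. HPRT1, of purine salvage, was covered over 69.3% by a short peak of 1387 bp, TOP2A, topoisomerase II alpha, over 20.3% by a peak of 4314 bp, and CCND3, cyclin D3, wholly by one of 6834 bp. POLR2A, the catalytic subunit of RNA polymerase II, was touched under xChIP by H1.5 only, over 17.4% of the promoter.

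Architectural and chromatin genes divided. LMNB1, which encodes lamin B1, was covered by an xChIP H1.2 peak of 269654 bp. CTCF, the insulator protein, and STAG1, a cohesin subunit, lay wholly under xChIP H1.2 peaks of 94251 and 168892 bp, and KMT2A, an H3K4 methyltransferase rearranged in leukemias, under 29955 bp. The cohesin subunit SMC3 was in no list, with its nearest peak 6909 bp away in xxChIP H1.2. RAD21, the third cohesin gene, was the only one of the 19 with an xxChIP peak, of H1.5, which covered 15.1% of the promoter and lay 699 bp from the TSS. HMGB1, an abundant nuclear protein, was covered over 69.4% by a short xChIP H1.2 peak of 1433 bp.

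CEBPA and KLF6, a zinc finger transcription factor, were in no list, and so were NKX2-1, of lung and thyroid, and MAEL, of the germline, as was 40.7% of the class. Regulators of the 40 whose promoters were not CpG-rich varied as well. SPI1, CEBPE and GATA2, of blood cell lineages, each lay wholly under an xChIP H1.2 peak. RUNX1, also of blood cells, was in no list, and neither were PAX6, SOX2, OTX2 and WT1. DAZL, of the germline, had an xxChIP H1.2 peak over 33.1% of the promoter. The nearest peak to the CEBPA start lay 5150 bp away, in xChIP H1.2, and the nearest to the KLF6 start 12911 bp away, in xxChIP H1.2. At NKX2-1 the nearest xxChIP H1.2 peak lay 4228 bp away and the nearest xChIP peak, of H1.5, 25383 bp away. Of the promoters with the highest CpG ratios in each arrangement, FAM168B (both xChIP lists), LRIG3 (both xxChIP lists), FBXO10 (all 4 lists) and DUSP5 (no list) had ratios of 1.10, 0.993, 0.828 and 1.13. The gene start used is the 5′-most annotated one and need not be the start used in these cells.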

How the data were processed

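H1.2 and H1.5 were mapped by xChIP-seq and xxChIP-seq in HL-60/S4 cells, in 12 antibody samples; 6 input samples were not analysed here. Per the paper's methods, the authors mapped read pairs with Bowtie2 to the hg19 genome, kept uniquely mapped reads, called peaks in each replicate with MUSIC at default settings and merged the 3 replicates of a combination; versions are not given in the sources used here. The deposited files hold the chromosome, start and end of each merged peak, with no count, score or p-value. Columns of per-sample values that were not used numbered 0. The merged lists held 563676 peaks on chromosomes 1 to 22 and X, and covered 26.4% (H1.2) and 16.3% (H1.5) of known sequence under xChIP, and 20.2% (H1.2) and 17.2% (H1.5) under xxChIP. Unequal coverage of the lists moves every share, so shares were set beside those of all promoters and of all windows.

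Gene starts were the 5′ ends of protein-coding genes of GENCODE v44 lifted to GRCh37, the build of the files, with 20098 genes at 20048 distinct starts. Bases covered by peaks were counted exactly in Python 3.11.15 with numpy 2.4.6; sequence was read with pyfaidx 0.9.0.4 and samtools 1.23.1, and figures were drawn with matplotlib 3.10.9. The share of all windows counts every position of the known sequence whose window touches a peak. Intervals are 95% Wilson intervals and cover counting error only; a count of 0 was given the limit of 3 counts. No test between conditions was possible without replicate values. The counting functions were tested on simulated peaks.

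Groups follow the protocol and antibody of the sample labels. Named genes are those of 40 listed symbols that fell in the class, the 3 promoters of highest CpG ratio in each of 4 arrangements, and genes of 17 groups, with at most the first 3 in alphabetical order as examples unless a count of 5 or fewer allowed all to be named; the HOX and zinc finger genes beyond these, and the promoters with a covered start, were chosen after their values were seen. For the printed sequences, an unnamed readthrough gene and GOLGA8A, which has near-identical copies, were passed over, and ZNF677 was taken ahead of LRIG3. The members and gene lists were chosen with earlier results of these data known. The alternatives tried changed the window, the overlap rule, the CpG ratio, the peak lengths, the flanks and the chromosomes. Values of some single genes are not reported here.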

Additional observations from a re-analysis of the deposited data

How the results depend on the processing

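No paired analysis was possible because each list merges its 3 replicates, so replicate numbers carry no values, and leaving out replicates could not be run for the same reason. No ratio crossed 1 under any alternative, and 32 of 66 recomputed values stayed within the counting interval, or for arrangements within 1.5 times, of the value reported. Leaving out each chromosome in turn gave overlap shares of 50.7 to 52.1% (H1.2) and 20.3 to 21.2% (H1.5) under xChIP, and 2.92 to 3.28% (H1.2) and 1.90 to 2.05% (H1.5) under xxChIP. The values that moved follow, in the same order. Overlap shares were 44.5%, 13.3%, 1.12% and 0.754% with TSS ± 500 bp, 65.5%, 36.5%, 13.9% and 10.5% with TSS ± 2500 bp, and 39.7%, 8.18%, 0.503% and 0.377% where at least 50% of the window had to be covered. A CpG ratio of at least 0.65 gave xxChIP shares of 3.56% (H1.2) and 2.71% (H1.5), and one of at least 0.85 gave 19.7% for xChIP H1.5 and xxChIP shares of 2.48% (H1.2) and 1.49% (H1.5). Relative to all windows, xChIP H1.2 stood at 1.37 with windows weighted by chromosome and at 1.38 with TSS ± 2500 bp, xChIP H1.5 at 0.631 and 0.970 with 500 and 2500 bp, xxChIP H1.2 at 0.0444 and 0.325, and xxChIP H1.5 at 0.0342 and 0.265. Covered share at the TSS relative to the flanks was, with peaks under 20 kb, 0.747 and 0.393 under xChIP and 0.0364 for xxChIP H1.2, 0.497 for xChIP H1.5 with a centre of TSS ± 500 bp, and 0.829 for xChIP H1.2 and 0.0380 for xxChIP H1.5 at a CpG ratio of at least 0.85. Promoters with xxChIP and no xChIP numbered 77 with TSS ± 500 bp and 347 with TSS ± 2500 bp, and 1515 were in no list with TSS ± 2500 bp. A wider window holds more bases and so meets more peaks; for the remaining changes the cause was not tested. Depth is unknown, so whether weaker binding was missed cannot be told.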

Other observations

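Windows above the same sequence limits and away from gene starts were counted in the same way. Within these limits their GC content and CpG ratio were not matched to those of the promoters, and they may lie within genes. Of tiled windows that met the CpG ratio and GC limits and lay over 10 kb from any annotated gene start, there were 1256. The xChIP lists overlapped 45.1% (42.3 to 47.8%) of them for H1.2 and 21.3% (19.2 to 23.7%) for H1.5. The H1.2 share lay below the 51.2% of CpG-rich promoters and near the 46.4% of remaining promoters, and the H1.5 share was within counting error of the 20.8% of CpG-rich promoters. The xxChIP lists overlapped 7.72% (6.37 to 9.33%) for H1.2 and 8.84% (7.39 to 10.5%) for H1.5, above the 3.11% and 1.97% of CpG-rich promoters and below the 30.1% and 26.8% of all genomic windows. Whether such windows hold starts that are not annotated was not tested.

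Exact matches to 9 promoter motifs were counted on both strands from 250 bp upstream to 50 bp downstream of the TSS, each motif on its own, so that matches of different motifs may overlap. The GC box GGGCGG occurred in 80.7% of CpG-rich and 36.4% of remaining promoters, and in 52.2% of all. CpG-rich promoters with it had xxChIP H1.2 and H1.5 shares of 2.75% and 1.77%, against 4.62% and 2.82% without it; their median GC content was 67.7% against 61.9%, and the part of GC content was not tested. The ETS core CCGGAAG occurred in 16.9% of CpG-rich promoters (11.8% of all), of which 57.5% had an xChIP H1.2 peak, against 50.0% of those without it. The YY1 motif AAGATGGCG occurred in 201 CpG-rich promoters, or 2.81% (1.87% of all), of which 62.2% had an xChIP H1.2 peak, against 50.9%. The palindromic NRF1 motif, searched as one fixed 10-base form, occurred in 183, or 2.56% (1.49% of all), of which 60.7% had one, against 51.0%. The TATA box TATAAA occurred in 4.38% of CpG-rich and 14.5% of remaining promoters (10.9% of all), and 47.8% of the CpG-rich ones with it had an xChIP H1.2 peak, against 51.4%. For the CCAAT box CCAAT (35.8% of all promoters), the CRE TGACGTCA (2.27%), the E-box CACGTG (8.33%) and the ZBTB33 palindrome, also in one 10-base form (0.554%), xChIP H1.2 shares with and without the motif were 53.4% and 50.2%, 55.3% and 51.1%, 50.9% and 51.3%, and 57.3% and 51.2%.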
